A study of Homo sapiens with 8 samples.

Results

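The NELFE knockdown and the NELFB knockdown were compared directly, as the 3 NELFE libraries against the 2 NELFB libraries, which are 5 of the 8 libraries of the series. The libraries were assigned to the groups by their labels alone. The cells are HAP1, a near-haploid human line, and all 8 libraries, controls included, come from the clone SC9, a monoclonal derivative that carries a nuclease-dead Cas9 fused to BFP and the KRAB repressor domain. This fusion is driven by the EF1-a promoter behind a chromatin opening element, so it is produced constantly and the guide RNA decides where it acts. Cells received a lentiviral guide RNA against NELFE (3 libraries), NELFB (2 libraries) or ADAM22, the control target (3 libraries, vector pLB187), were selected with puromycin, and polyadenylated RNA was extracted 144 h after transduction. Each gene was targeted with 1 guide RNA in 1 clone, so an effect of losing a subunit and an effect of its guide RNA elsewhere in the genome cannot be told apart by the design. The control is itself a knockdown, and ADAM22 had 257 to 342 reads in the control libraries against 642 to 1102 in the others. The control libraries serve here to show whether a gene that differs between the knockdowns lay above or below the control level.

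The negative elongation factor (NELF) is a complex of the subunits NELFA, NELFB, NELFCD and NELFE that, together with DSIF, holds RNA polymerase II in the paused state a short distance downstream of the promoter. Release requires the kinase P-TEFb, which phosphorylates DSIF, NELF and the polymerase. NELFB is a core subunit that joins the other subunits, whereas NELFE carries an RNA recognition motif. Promoter-proximal pausing is best known at immediate early, heat shock and developmental genes, and NELF also takes part in the 3′ end formation of replication-dependent histone transcripts together with the cap-binding complex.

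Library totals over genes ran from 22037423 to 24444185 reads, and levels are given as CPM, the count scaled to a common library total, after TMM normalization. Libraries of a knockdown were not equally alike. Over 10459 genes, the chi-square per degree of freedom between libraries was 4.25 for NELFE knockdown replicates 1 and 2 but 21.1 and 21.4 for replicate 3 against each of them, and it was 5.99 between both NELFB libraries. NELFE knockdown replicate 3 therefore stood apart, and the values of the leading lists without it are given beside them. Control replicate 1 stood apart from the other controls in the same measure (17.1 and 29.4, against 5.76 between replicates 2 and 3). The mitochondrial share of counts was 4.26%, 4.47% and 4.36% in the NELFE libraries and 4.81% and 5.01% in the NELFB libraries, so it was higher with the NELFB guide RNA, and its part in the differences was not tested. HAP1 has no marker set of its own. The BCR and ABL1 genes of its fusion were expressed in every library, whereas of 7 blood cell markers only CD34 reached the level for testing, and MPO and HBG1 had 0 reads in all 8 libraries. Of 7 fibroblast and mural cell markers, DCN and LUM had 0 reads in all libraries, and COL1A1, PDGFRA and PDGFRB were tested.

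The guide RNAs and a selection of partly matching sites are shown first. The NELFE guide RNA matched chr6:31958918-31958936 on the minus strand of GRCh38, in the untranslated part of exon 1 of NELFE, and the NELFB guide RNA matched chr9:137255369-137255387 on the plus strand, in the coding part of exon 1 of NELFB. The other sites are selected partial matches of the NELFB guide RNA near start sites of genes that fell in the NELFB knockdown. They differ in function, chromosome and position, and sites at other such genes, FEM1C among them, are not shown. They lie in a coding exon (HMX3), in the untranslated part of exon 1 (ERRFI1), in an intron (MAPK6, CCT5, ST8SIA2, PPFIA2, ZNF823) or upstream of the transcript (TGFB3, MID1IP1-AS1) of the canonical gene model. Each line reads 5′ to 3′ and ends with the PAM, and capitals mark the unbroken run of bases next to the PAM that is identical to the guide RNA. A PAM-proximal run of 11 bases is shared by most of these sites although their outer bases differ.
NELFE target, guide RNA NELFE: GGGCGCGGCCGGAGACCGTggg
NELFB target, guide RNA NELFB: GCCGAGCTGGAGGGCGCCGggg
HMX3, chr10:123136273-123136291, plus strand: ggggccCTGGAGGGCGCCGcgg
MID1IP1-AS1, chrX:38804058-38804076, minus strand: gggctgagGGAGGGCGCCGggg
ST8SIA2, chr15:92394472-92394490, plus strand: gggtcgagGGAGGGCGCCGggg
PPFIA2, chr12:81758551-81758569, minus strand: acgttccgGGAGGGCGCCGggg
MAPK6, chr15:52019417-52019435, plus strand: gcggctcgGGAGGGCGCCGcgg
CCT5, chr5:10250778-10250796, plus strand: ctccagtgGGAGGGCGCCGggg
ERRFI1, chr1:8026182-8026200, minus strand: catgcgcgGGAGGGCGCCGcgg
TGFB3, chr14:75982281-75982299, minus strand: agctggcgaGAGGGCGCCGggg
ZNF823, chr19:11738566-11738584, plus strand: ctgcccagaGAGGGCGCCGggg

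To see whether the labels hold, the guide targets were examined in every library. NELFE was at 2.41, 2.37 and 2.98 CPM in the NELFE libraries and at 61.2 and 56.9 CPM in the NELFB libraries. The groups were far apart, with a log2 difference of -4.52 (SE 0.12, adjusted p = 6.09e-09, edgeR quasi-likelihood test), against 50.5, 49.4 and 48.1 CPM in control. NELFB was at 63.4, 63.9 and 64.0 CPM in the NELFE libraries and at 3.07 and 2.78 CPM in the NELFB libraries, a log2 difference of 4.44 (SE 0.11, adjusted p = 6.09e-09, edgeR). At the RNA level each subunit was thus depleted with its own guide RNA. NELFB RNA was also slightly below control in the NELFE libraries (log2 difference -0.24, adjusted p = 0.0481, edgeR). These levels do not give protein: the paper reports that NELFB protein was lost as well when NELFE was depleted. The comparison is therefore one of guide RNAs, not of cells that each lack a single subunit. The remaining subunits did not pass the test: the log2 difference between the knockdowns was -0.12 for NELFA (SE 0.09, adjusted p = 0.983, edgeR) and 0.11 for NELFCD (SE 0.08, adjusted p = 0.983, edgeR). SKIC2, a helicase of cytoplasmic RNA decay that starts 204 bases from NELFE on the opposite strand, was at 42.8, 43.1 and 35.3 CPM in the NELFE libraries and at 59.8 and 61.4 CPM in the NELFB libraries. It was 1.5-fold lower with the NELFE guide RNA (log2 difference -0.58, SE 0.098, adjusted p = 0.0404, edgeR), below its control level of 56.9 ± 0.485 CPM (SD, n = 3). Near NELFB, STPG3 and STPG3-AS1 had low levels and log2 differences of 1.42 and 0.51, which did not pass (adjusted p = 0.982 and 0.983, edgeR).

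The knockdowns with the NELFE and NELFB guide RNAs differed at few genes in the fit reported. Of 16852 genes tested in a model of all 8 libraries, 40 were called higher after NELFE than after NELFB knockdown (0.237% of the genes tested) and 13 were called lower (0.0771%), at an adjusted p under 0.05. Before adjustment, 335 genes had a p under 0.05 in the first direction and 528 in the second. Together these 863 genes are close to the share of 0.05 that such a threshold yields where no gene differs. They are therefore not counted as further differences. With the replicate number as a block, 69 genes were called higher and 126 lower. Whether the numbers pair the libraries was not settled, and the named genes that gained a call with the block are given in the closing section. The 40 genes differed by a median of 5.98-fold, or 5.80-fold with the 4 genes at the detection floor set to their bound, and 37 of them by more than 2-fold, whereas the 13 genes differed by a median of 2.44-fold and 7 of them by more than 2-fold. The median gene had a log2 difference of -0.01. The groups of libraries did not overlap at any of the 53 genes. Across all genes tested, all 3 NELFE libraries lay below both NELFB libraries at 12.7% and above them at 12.3%.

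**Figure D1:**
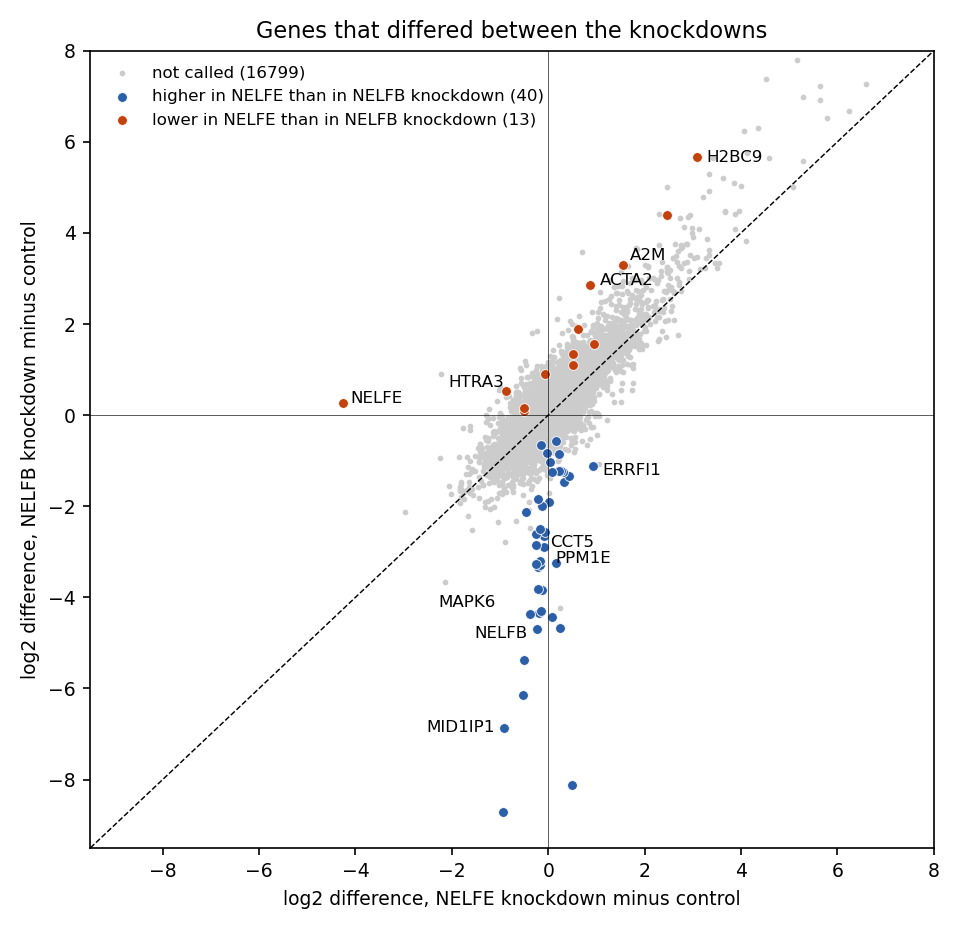
Log2 difference from control of each gene tested, in the NELFE knockdown (horizontal axis) and in the NELFB knockdown (vertical axis), with the 53 genes that differed between the knockdowns in colour and the diagonal dashed. Most of the 40 genes in blue lie near 0 on the horizontal axis, and they reach down along the vertical axis. MID1IP1, SHISA8 and ERRFI1 lie at -0.92, -0.93 and 0.92 on the horizontal axis. The lowest points are genes with 0 reads in the NELFB libraries, whose fitted differences are not bounds. Most of the 13 genes in orange lie just above the cloud of other genes. Both axes use the same control libraries.

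Set beside the control libraries, both directions held different kinds of genes. In the NELFE knockdown, 7.92% of all tested genes were called higher and 7.04% lower than control, and in the NELFB knockdown these were 10.6% and 8.88%. Of the 40 genes, 37 were called lower than control in the NELFB knockdown and were not called in the NELFE knockdown, and MID1IP1 and NELFB were called lower in both. ERRFI1 was called higher than control in the NELFE and lower in the NELFB knockdown, the only one of the 53 with both calls. Of the 13 genes, 7 were called higher than control in both knockdowns, LPP and DLGAP1-AS1 were called higher in the NELFB knockdown alone, and SKIC2, FAM83H, HTRA3 and NELFE were called lower in the NELFE knockdown alone. Since the 53 genes were picked by the difference between the knockdowns and all contrasts share libraries, these counts are a description.

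The 40 genes that were higher with the NELFE guide RNA were all below control with the NELFB guide RNA and have varied functions. MID1IP1, a protein that stimulates acetyl-CoA carboxylase in fatty acid synthesis, had the largest difference among genes well above the detection limit. It was at 99.7, 94.0 and 97.4 CPM in the NELFE libraries and at 1.70 and 1.45 CPM in the NELFB libraries, 61.3-fold apart (log2 difference 5.94, SE 0.13, adjusted p = 2.71e-09, edgeR). The NELFE libraries also lay below the 3 controls, which were between 172.6 and 193.96 CPM. Its antisense transcript MID1IP1-AS1 had 115, 96 and 92 reads in the NELFE libraries and 3 and 1 with the NELFB guide RNA, which is lower by at least 34.8-fold when 3 reads per library are taken as the floor. The long non-coding gene ENSG00000235806 (chromosome X, 38770331 to 38799658, plus strand), which lies upstream of MID1IP1 (38801440 to 38806537, plus strand), had 0 reads in both NELFB libraries and 50, 56 and 37 in the NELFE libraries, at least 16.4-fold lower. Reads were counted without regard to strand, so transcripts of opposite strands at this locus cannot be told apart.

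Kinases and phosphatases were among these genes. MAPK6 (ENSG00000069956.11, chromosome 15, 51952106 to 52067375), an atypical MAP kinase also known as ERK3, was at 96.3, 87.9 and 110.2 CPM in the NELFE libraries and at 7.55 and 4.78 CPM in the NELFB libraries. The NELFE libraries reached up to the lowest of the controls (110.2 to 139.5 CPM), and the NELFB libraries lay far below both (log2 difference 3.99, SE 0.20, adjusted p = 2.06e-06, edgeR). PPM1E, a phosphatase that acts on AMP-activated and calmodulin-dependent kinases, had values of 72.1, 69.2 and 72.7 CPM against 8.96 and 8.42 CPM (log2 difference 3.04, SE 0.09, adjusted p = 2.54e-08, edgeR). CSNK1G3, a membrane-bound casein kinase 1, and DGKH, a diacylglycerol kinase, differed by 1.92 and 1.07 on the log2 scale (adjusted p = 1.76e-05 and 0.0024, edgeR). ARHGAP4, a GTPase-activating protein, differed by 3.11 (adjusted p = 0.0275, edgeR).

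ERRFI1, an inhibitor of the epidermal growth factor receptor, moved in opposite directions. It was at 30.1, 29.3 and 37.9 CPM in the NELFE libraries, at 8.80 and 6.92 CPM in the NELFB libraries, and at 12.9, 18.0 and 20.6 CPM in control. The 3 groups did not overlap: the NELFE libraries were highest and the NELFB libraries lowest. Its log2 difference was 2.04 between the knockdowns (SE 0.21, adjusted p = 0.00116), 0.92 for NELFE against control (adjusted p = 0.00844) and -1.12 for NELFB against control (adjusted p = 0.00568), all from edgeR. TGFB3, a TGF-beta ligand, was at 5.98, 5.46 and 7.31 CPM in the NELFE and at 1.99 and 1.67 CPM in the NELFB libraries. Its control libraries, at 4.33 to 4.85 CPM, lay between them (log2 difference 1.77, SE 0.20, adjusted p = 0.00233, edgeR).

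Protein folding and turnover, neuronal and chromatin genes were also among the 40. CCT5 (ENSG00000150753.11, chromosome 5, 10249929 to 10266389), a subunit of the chaperonin that folds actin and tubulin, was at 469.5, 463.9 and 606.9 CPM in the NELFE and at 87.5 and 81.3 CPM in the NELFB libraries. The groups were 6.08-fold apart (log2 2.605, SE 0.16, adjusted p = 1.03e-05, edgeR). TRIM13 and FEM1C, both parts of ubiquitin ligases, differed by 4.16 and 3.61 on the log2 scale (adjusted p = 1.8e-07 and 6.25e-07, edgeR). PPFIA2, a liprin of the presynaptic active zone, had 102.1, 109.3 and 86.5 CPM against 9.75 and 8.89 CPM, and ST8SIA2, which makes polysialic acid on neural cell adhesion molecules, had 12.1, 10.7 and 14.1 CPM against 0.456 and 0.342 CPM. Their log2 differences were 3.41 and 4.93 (adjusted p = 1.8e-07 and 3.9e-06, edgeR). PHC1 and SCML2, proteins of the Polycomb group, were 3.51-fold and 3.67-fold higher in the NELFE knockdown (adjusted p = 0.00214 and 1.12e-05, edgeR). Named zinc finger genes contributed 5 of the 40, namely ZNF48, ZNF341, ZNF443, ZNF799 and ZNF823, and the last 3 lie on chromosome 19. Zinc finger genes can share reads with related copies, which was not tested here.

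Other genes of this direction well above the detection limit, in the order of their differences, were HMX3, C1orf159, PPFIA2-AS1, XKR8, LIMD1, DGCR11, PGP, DGCR2, ATPSCKMT, BRICD5, ADGRL2, MANF, UBAC2 and METTL9. HMX3, a homeobox gene, was at 2.24, 2.67 and 2.93 CPM in the NELFE and at 0.166 and 0 CPM in the NELFB libraries (log2 difference 4.87, adjusted p = 0.00162, edgeR). C1orf159 was at 13.3, 13.8 and 12.8 CPM against 0.747 and 0.726 CPM (log2 difference 4.16, adjusted p = 2.72e-06, edgeR). XKR8, a member of the family of phospholipid scramblases, was at 10.1, 9.29 and 9.21 CPM against 1.49 and 0.683 CPM (log2 difference 3.12, adjusted p = 0.000148, edgeR). At these genes the NELFE libraries lay far above the NELFB libraries, with no overlap. PPFIA2-AS1 was at 3.78, 4.34 and 4.56 CPM against 0.332 and 0.299 CPM (log2 difference 3.72, adjusted p = 0.00104, edgeR). ZNF799, a zinc finger gene, was at 3.12, 1.89 and 3.21 CPM against 0.332 and 0.342 CPM (log2 difference 3.003, adjusted p = 0.00227, edgeR). The smallest difference among the genes of this paragraph was 0.51 for METTL9, a methyltransferase. SHISA8 and TOR4A had low levels and lay at the floor in the NELFB libraries, at least 9.17-fold and 4.75-fold below the NELFE libraries. In all, 24 of the 40 genes stayed called when each of the 8 libraries was left out in turn. The calls of ARHGAP4, MANF, METTL9 and SHISA8 were held in 3 of these 8 fits.

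**Figure D2:**
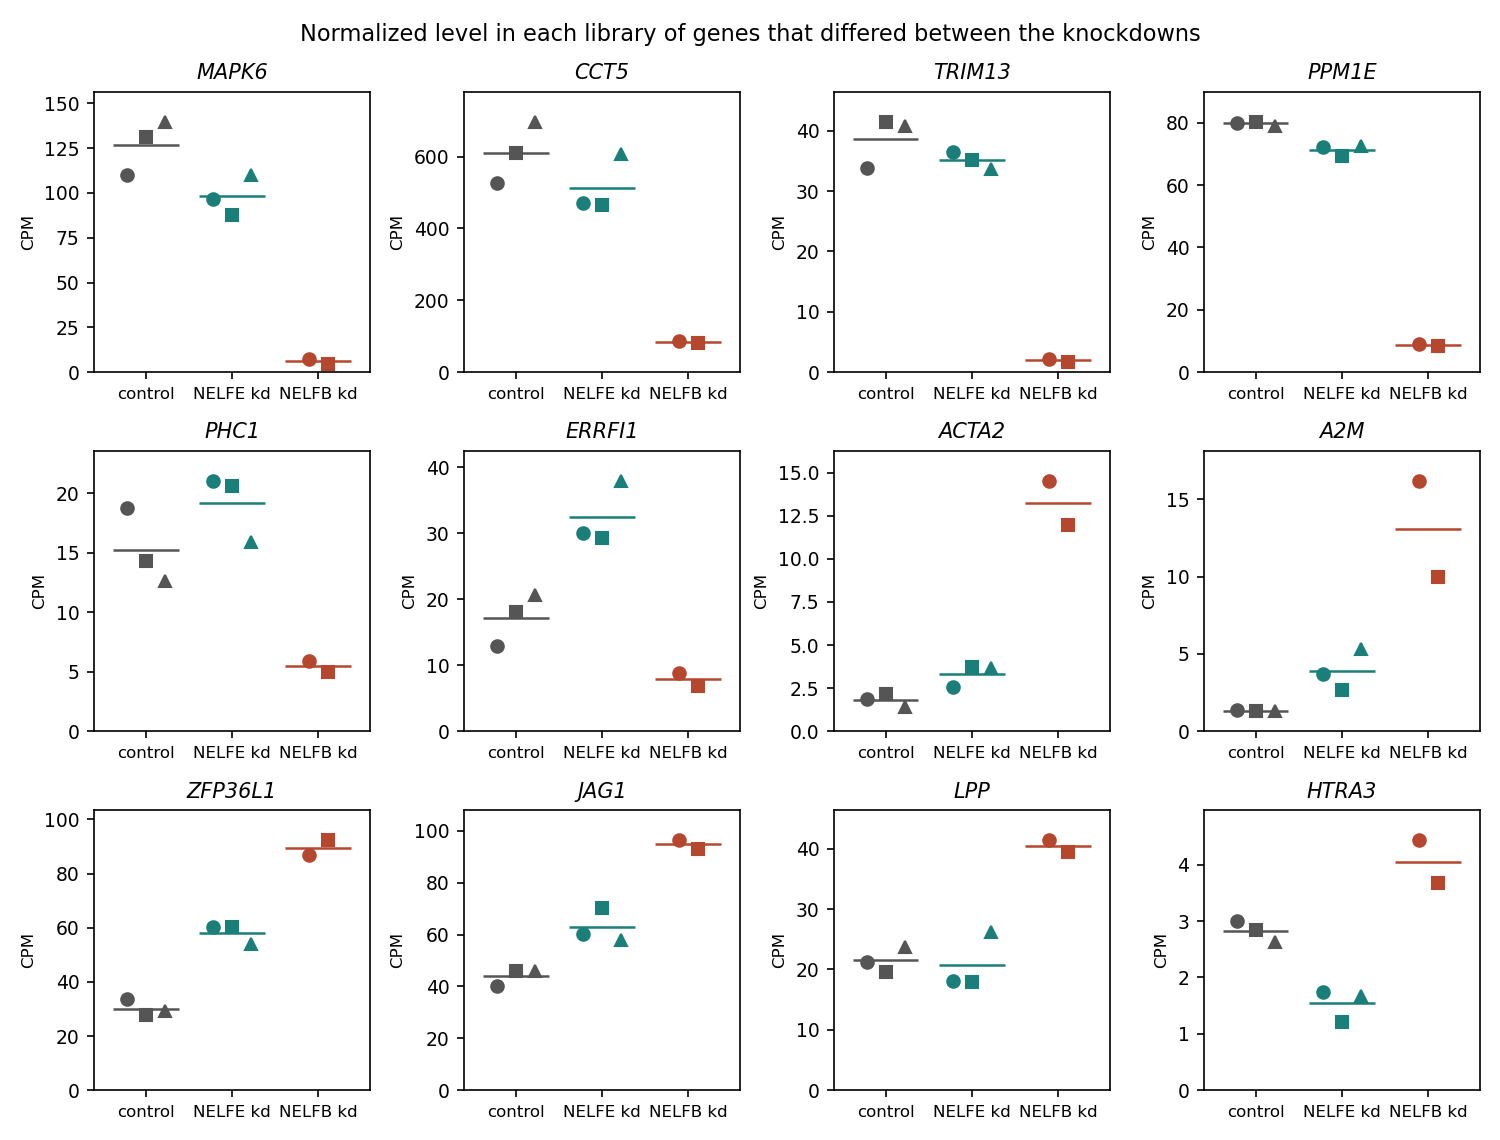
Normalized level (CPM, vertical axes starting at 0) of 12 called genes in each control, NELFE knockdown (kd) and NELFB knockdown library, with circles, squares and triangles for replicates 1, 2 and 3 and a line at the group mean. MAPK6, CCT5, TRIM13, PPM1E and PHC1 are low in the NELFB libraries alone, ERRFI1 is high with NELFE and low with NELFB, and ACTA2, A2M, ZFP36L1, JAG1 and LPP are highest in the NELFB libraries.

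A property that the comparison did not use is the sequence around the start sites. Both strands were searched beside NGG PAMs for the NELFB guide RNA, up to 500 bases from every annotated start site of the genes tested. A PAM-proximal match of at least 9 bases was present at 28 of the 40 genes, at 0 of the 13 and at 0.967% of all genes tested. Counted from the matches, 23 of the 43 genes with 11 bases or more (53.5%, NELFB included) were called higher in the NELFE knockdown, as were 5 of 54 genes with 10 bases and 0 of 66 with 9 bases. Among 2457 genes with runs of 7 or 8 bases 3 were called, and among the 14232 with shorter runs 9 were. The NELFE guide RNA had matches of at least 9 bases at 44 genes, of which NELFE and SKIC2 were called lower and 0 were called higher. The match of SKIC2 is the NELFE target site itself, 189 bases from a start site of SKIC2. Runs of 11 bases or more were present at 3 genes with this guide RNA, against 43 with the NELFB guide RNA. The shares called are therefore not comparable between the guide RNAs. The matches are a description, since binding was not measured.

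Length of the match did not separate the genes fully. Apart from NELFB, 22 genes with a match of at least 11 bases were called and 20 were not. The median distance of the site from a start site was 132.5 bases in the called and 142 bases in the other genes, the median control level was 35.1 and 34.7 CPM, and the median number of identical bases over the whole guide RNA was 14 and 13 of 19. In these measures both sets were alike. Of the 20 genes that were not called, 15 had a log2 difference above 0 and the median was 0.12, against 2.71 in the called genes. YY1, a zinc finger transcription factor chosen here after its values were seen, had a match of 14 bases and a log2 difference of 0.11 (adjusted p = 0.983, edgeR). Conversely, 12 of the 40 genes had no match of at least 9 bases. Of these, MID1IP1 starts 2424 bases from MID1IP1-AS1, ATPSCKMT 392 bases from CCT5 and BRICD5 3977 bases from PGP, each next to a gene that had such a match. PPFIA2-AS1 and DGCR11 lie within the bounds of PPFIA2 and DGCR2. ENSG00000235806 lies upstream of MID1IP1, and TOR4A (chromosome 9, 137277726 to 137282641) downstream of NELFB (137255327 to 137273542). PPM1E, SCML2, DGKH, ADGRL2 and SHISA8 had runs of at most 8 bases and no called gene that starts within 10000 bases.

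The 13 genes that were lower with the NELFE guide RNA had, apart from NELFE itself at 22.9-fold, differences of up to 6.01-fold. The 6.01-fold value is that of H2BC9, which had 4, 3 and 4 reads in the NELFE and 27 and 20 in the NELFB libraries. Of the 13 genes, 11 code for proteins. ACTA2 (ENSG00000107796.12, chromosome 10, 88935074 to 88991339), the smooth muscle actin, was at 2.58, 3.70 and 3.68 CPM in the NELFE and at 14.5 and 11.96 CPM in the NELFB libraries. Both groups lay above the controls, which were at 1.88, 2.17 and 1.40 CPM, and they were 3.99-fold apart (log2 difference -1.998, SE 0.21, adjusted p = 0.00129, edgeR). Besides NELFE it was the only one of the 13 that stayed called in all 16 alternative analyses. A2M, a secreted protease inhibitor, was at 3.70, 2.67 and 5.30 CPM against 16.2 and 10.0 CPM, with controls near 1 CPM (log2 difference -1.75, SE 0.27, adjusted p = 0.0246, edgeR). LPP, an actin-associated protein of focal adhesions, was at 18.1, 17.8 and 26.2 CPM against 41.4 and 39.4 CPM. It remained at the control level of 21.5 ± 2.09 CPM (SD, n = 3) in the NELFE libraries within their spread and was 1.96-fold higher in the NELFB libraries (log2 difference -0.97, SE 0.16, adjusted p = 0.0359, edgeR).

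Regulators of transcription and signalling were also among the 13, and ZFP36L1, JAG1 and ZNF608 rose in the order of control, NELFE and NELFB. ZFP36L1, an RNA-binding protein that promotes mRNA decay, was at 60.3, 60.1 and 53.9 CPM in the NELFE and at 86.8 and 92.4 CPM in the NELFB libraries, above 27.6 to 33.6 CPM in control (log2 difference -0.62, SE 0.10, adjusted p = 0.031, edgeR). JAG1, a Notch ligand, was at 60.2, 70.2 and 58.1 CPM against 96.5 and 93.0 CPM, above 40.2 to 46.1 CPM in control (log2 difference -0.59, SE 0.10, adjusted p = 0.0476, edgeR). ZNF608 had 23.4, 20.4 and 26.5 CPM against 42.6 and 40.7 CPM (log2 difference -0.83, SE 0.12, adjusted p = 0.0163, edgeR). HTRA3, a secreted serine protease, lay below control in the NELFE libraries (1.75, 1.204 and 1.68 CPM) and above it in the NELFB libraries (4.44 and 3.67 CPM, control 2.63 to 3.00 CPM). Its log2 difference was -1.39 (SE 0.22, adjusted p = 0.0257, edgeR), and FAM83H, a keratin-associated protein, differed by -0.65 (adjusted p = 0.0409, edgeR). DLGAP1-AS1, INTS6P1 and H2BC9, with log2 differences of -1.29, -1.92 and -2.59, had low levels (adjusted p = 0.048, 0.0404 and 0.0414, edgeR). INTS6P1 is a pseudogene and H2BC9 one of many near-identical histone genes, so the assignment of their reads is uncertain. The count of 13 depended on single libraries. It was 2 without control replicate 2 or NELFB knockdown replicate 1, 3 without NELFB knockdown replicate 2 or NELFE knockdown replicate 1 or 2, 27 without control replicate 1 and 34 without NELFE knockdown replicate 3.

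To describe programmes, 36 gene lists were examined, and for each the median log2 difference of its tested members is given beside the median of all genes (-0.01). In bulk RNA, fewer cells with a programme and less RNA per cell cannot be told apart. The contractile list of actins, tropomyosins, calponins and their partners leaned to the NELFB knockdown: 14 of 14 tested genes had a negative log2 difference, with a median of -0.40 (range -1.998 to -0.22). ACTA2 was called. TPM2, a tropomyosin, and FLNA, the actin crosslinker filamin A, came next, with log2 differences of -0.61 and -0.41 (adjusted p = 0.363 and 0.431, edgeR), so neither passed. The summed level of the list was 5169, 4503 and 6949 CPM in the NELFE libraries, 7781 and 7035 CPM in the NELFB libraries and 3462 to 4453 CPM in control. Thus replicate 3 of the NELFE knockdown lay close to the NELFB libraries and the other NELFE libraries lay between. All 3 NELFE libraries were below both NELFB libraries at 7 of the 14 genes, against 12.7% of all genes, and without NELFE knockdown replicate 3 the median was -0.65.

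Targets of YAP and TEAD, transcription regulators that respond to cell tension and density, leaned the same way. Of 20 tested genes 19 had a negative log2 difference, the median was -0.41, and none was called. The member with the smallest p was CCN2, a secreted matricellular protein, at 15.5, 17.5 and 34.4 CPM in the NELFE and 54.6 and 47.7 CPM in the NELFB libraries, with 4.85 to 5.95 CPM in control. The groups did not overlap, but the log2 difference of -1.19 did not pass (SE 0.27, adjusted p = 0.202, edgeR). With DESeq2 it passed (adjusted p = 0.00242). Without NELFE knockdown replicate 3 it was -1.63 and passed in edgeR (adjusted p = 0.000141), and the list median was -0.68. The log2 difference of the kinase NUAK2 went from -0.78 (adjusted p = 0.366) to -1.05 (adjusted p = 0.00617), both from edgeR.

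Extracellular matrix genes were negative in 12 of 12 tested members, with a median of -0.36. A2M, which was placed in this list although it is a protease inhibitor, was called. The laminin subunit LAMB1 was at 162.3, 160.5 and 146.8 CPM in the NELFE and at 204.7 and 201.5 CPM in the NELFB libraries, above 114.6 to 121.1 CPM in control. The groups did not overlap, and the log2 difference of -0.38 did not pass (SE 0.08, adjusted p = 0.126, edgeR), but passed with DESeq2 (adjusted p = 0.0145). The fibrillar collagen COL3A1 had 8.10, 2.62 and 4.37 CPM against 26.8 and 12.05 CPM and 0.2 to 0.31 CPM in control, a log2 difference of -1.95 (SE 0.40, adjusted p = 0.137, edgeR). Without NELFE knockdown replicate 1 it was -2.48 and passed (adjusted p = 0.0375, edgeR). Markers of other cells were set beside these genes. The fibroblast and mural cell markers summed to 197.6, 193.7 and 159.9 CPM in the NELFE, 187.5 and 182.4 CPM in the NELFB and 138.6 to 152.8 CPM in the control libraries. They had a median log2 difference of -0.34 over the 3 that were tested, and -0.13 over the 2 tested without NELFE knockdown replicate 3, with COL1A1 at 15.3 to 21.0 CPM in the NELFE, 20.04 and 27.8 CPM in the NELFB and 19 to 29.6 CPM in the control libraries. The most abundant of them, PDGFRA, differed by 0.04 (adjusted p = 0.99, edgeR). CD34, a marker of blood progenitors and endothelium, was at 0.665, 0.258 and 1.30 CPM in the NELFE, at 2.78 and 0.897 CPM in the NELFB and at most at 0.133 CPM in the control libraries, and did not pass (adjusted p = 0.943, edgeR). The part of such cells in the matrix and contractile differences was not tested.

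Immediate early genes, which are transcribed within minutes of a stimulus and are classical paused genes, had a median log2 difference of -0.52 over 25 tested members, 22 of them negative, the lowest median of the 36 lists with all 8 libraries. Without NELFE knockdown replicate 3 it was -0.39, and the YAP and TEAD list was lowest. All 3 NELFE libraries lay below both NELFB libraries at 16 of the 25 genes (64.0%, against 12.7% of all genes). ZFP36L1 was called. EGR3, a zinc finger transcription factor, was at 5.19, 7.66 and 4.51 CPM in the NELFE and at 10.1 and 15.2 CPM in the NELFB libraries, and JUN, a subunit of AP-1, at 10.0, 13.6 and 15.8 CPM against 25.97 and 29.6 CPM. Neither gene had overlapping groups, and their log2 differences of -1.12 and -1.08 did not pass (SE 0.25 for each, adjusted p = 0.185 and 0.233, edgeR), whereas DESeq2 gave adjusted p = 0.00786 and 0.00601. Against control the list had a median log2 difference of 0.28 in the NELFE and 0.94 in the NELFB knockdown. Dual-specificity phosphatases, Sprouty and SPRED genes, which feed back on ERK, had a median of -0.38 with 11 of 12 members negative and none called; DUSP1 had -0.35 (adjusted p = 0.928, edgeR). Heat shock proteins, another group known for pausing, had a median of 0.01, and -0.14 without NELFE knockdown replicate 3. With all libraries, 0 of the 15 genes had every NELFE library below both NELFB libraries, and without that library 13 had (86.7%, against 21.99% of all genes).

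Replication-dependent histone genes rose above control with either guide RNA in the polyadenylated RNA measured here. They had a median log2 difference from control of 1.88 in the NELFE and 2.39 in the NELFB knockdown, and 21 and 24 of 26 tested genes were called higher than control, against 7.92% and 10.6% of all genes. Between the knockdowns their median was -0.49, with 23 of 26 negative. Their summed level was 29.6 to 39.9 CPM in control, 214, 170 and 135 CPM in the NELFE and 265 and 206 CPM in the NELFB libraries, so the sums of both knockdowns overlapped. H2BC9 was called. H2BC7 and H4C5, the next by p, had log2 differences of -1.28 and -0.92 (adjusted p = 0.192 and 0.227, edgeR). Clustered protocadherins, cell adhesion genes of the nervous system, had a median of -0.20 over 29 genes and -0.09 without NELFE knockdown replicate 3, with none called, and PCDHGC3 had -0.50 (adjusted p = 0.666, edgeR).

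DNA replication, respiratory and glycolysis genes of the nucleus had small positive medians. Highly expressed genes leaned this way too. In the highest of 5 equal bins of mean level, 19.7% of genes had all NELFE libraries above both NELFB libraries. That bin holds MCM2, ATP5F1B and TPI1, and the part of expression level in these lists was not tested. All 31 DNA replication genes had a positive log2 difference, with a median of 0.18, but none was called and only 5 (16.1%, against 12.3% of all genes) had all NELFE libraries above both NELFB libraries. The median was 0.02 without NELFE knockdown replicate 3. For example MCM2, a subunit of the replicative helicase, was at 275.0, 264.5 and 307.2 CPM in the NELFE and at 223.9 and 251.5 CPM in the NELFB libraries (log2 difference 0.25, adjusted p = 0.888, edgeR). Nuclear genes of the respiratory chain had a median of 0.15 over 28 members, 27 of them positive, with 16 (57.1%, against 12.3% of all genes) not overlapping, and without NELFE knockdown replicate 3 the median was 0.11. ATP5F1B, the catalytic subunit of ATP synthase, had 1354, 1323 and 1414 CPM against 1216 and 1123 CPM (log2 difference 0.22, SE 0.08, adjusted p = 0.855, edgeR). The 13 respiratory chain genes of the mitochondrial genome went the other way, with a median of -0.15 and 12 negative. MT-CO2 was at 3456, 3670 and 3394 CPM against 4243 and 4226 CPM (log2 difference -0.27, adjusted p = 0.826, edgeR).

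Glycolysis had a median of 0.15 over 18 genes, 10 of them (55.6%, against 12.3% of all genes) with all NELFE libraries above both NELFB libraries, and the member with the smallest p was TPI1, triose phosphate isomerase (log2 difference 0.34, adjusted p = 0.556, edgeR). Cytosolic ribosomal proteins had a median of 0.04 over 85 genes. Of these, 29 lay above in this way (34.1%, against the same 12.3%, and 19.7% in the highest bin of mean level). RPL22L1 had the smallest p among the 85 (log2 difference 0.54, adjusted p = 0.48, edgeR). Host genes of small nucleolar RNAs had 0.12 over 25 genes, and 0.05 without NELFE knockdown replicate 3. Cytosolic aminoacyl-tRNA synthetases had 0.09 over 20, and 0.02 without that library. Neither list had a gene called in the edgeR fit reported. SNHG19 passed with DESeq2 (log2 difference 0.60, adjusted p = 0.0247) and with no filter on low counts (0.60, adjusted p = 0.0342, edgeR). Targets of ATF4, the transcription factor of the amino acid response, had median log2 differences from control of -0.76 and -0.83 in the NELFE and NELFB knockdowns, which share the controls, and of 0.06 between the knockdowns (-0.02 without NELFE knockdown replicate 3). Amino acid transporters had 0.08 over 11 genes, and 0.10 without that library, with none called. At 5 of them (45.5%, against 12.3% of all genes) all NELFE libraries lay above both NELFB libraries. The chaperonin and prefoldin list had a median of 0.11, and -0.02 without NELFE knockdown replicate 3, with CCT5 as the only call. Cholesterol synthesis (-0.04), fatty acid synthesis (0.01) and mitosis (0.03) had medians near that of all genes, and the latter pair had 0.05 and -0.03 without NELFE knockdown replicate 3.

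**Figure D3:**
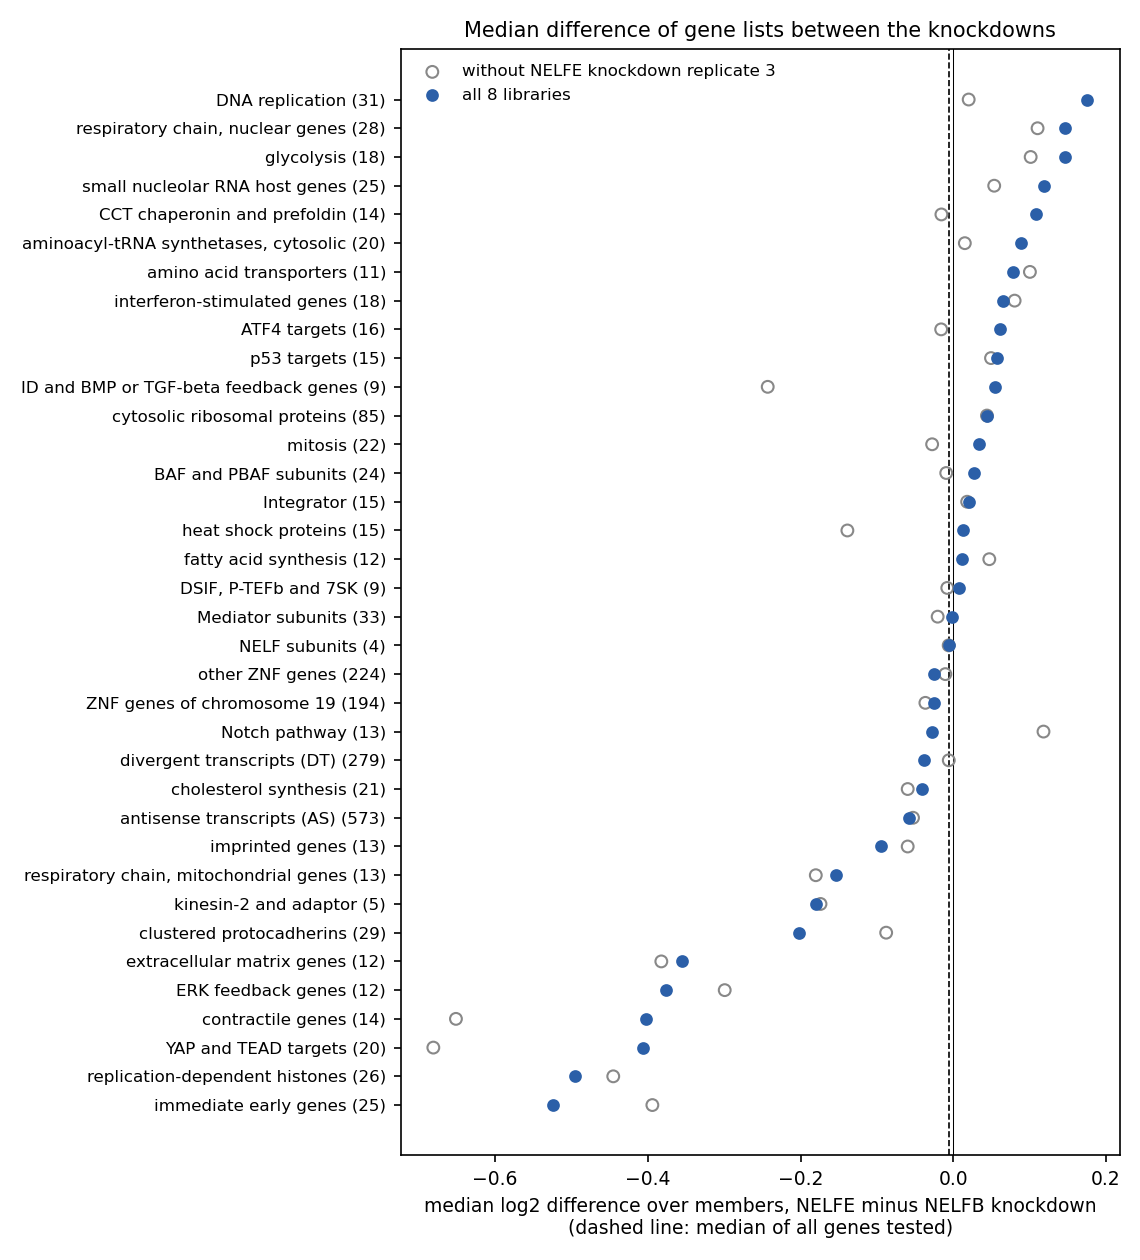
Median log2 difference between the knockdowns over the members of 36 gene lists (horizontal axis, NELFE minus NELFB, number of tested genes in brackets), with all 8 libraries (filled) and without NELFE knockdown replicate 3 (open). Immediate early, histone, YAP and TEAD, contractile, ERK feedback and matrix genes lie between -0.52 and -0.36, and the DNA replication list moves from 0.18 to 0.02 without that library.

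The transcription machinery that acts with NELF showed no difference that passed the test. DSIF, P-TEFb and 7SK genes had a median log2 difference of 0.01 (range -0.07 to 0.13, 9 genes), Integrator 0.02 (15 genes), Mediator -0.00 (33 genes) and BAF and PBAF remodelers 0.03 (24 genes, and -0.01 without NELFE knockdown replicate 3), with 0 calls in these lists by edgeR and 1 gene, a BAF or PBAF subunit, at an unadjusted p under 0.05. In the order of these lists, the member of each with the smallest p was CDK9, INTS4, MED18 and SMARCA2. CDK9, the kinase of P-TEFb, was at 0.13 (SE 0.09, adjusted p = 0.983) and INTS4 at -0.14 (SE 0.09, adjusted p = 0.983). MED18 was at 0.24 (SE 0.11, adjusted p = 0.983) and SMARCA2 at -0.25 (SE 0.09, adjusted p = 0.807), all from edgeR. Notch pathway genes had a median of -0.03, and 0.12 without NELFE knockdown replicate 3, with JAG1 called, and the Notch target HES1 had a log2 difference of -0.95 (SE 0.33, adjusted p = 0.821, edgeR). ZNF genes had medians of -0.03 on chromosome 19 (194 genes, 3 called higher) and -0.02 elsewhere (224 genes, 2 called higher and 1 lower), where 0.237% of all genes were called higher and 0.0771% lower. Antisense transcripts (573 genes) and divergent transcripts (279 genes) had medians of -0.06 and -0.04, the latter -0.01 without NELFE knockdown replicate 3. Imprinted genes, p53 targets and interferon-stimulated genes had medians of -0.09, 0.06 and 0.06, and the first had -0.06 without that library. None was called in the edgeR fit reported. The imprinted gene MEST and the p53 target GDF15 passed with no filter on low counts (adjusted p = 0.0369 and 0.00711, edgeR). Feedback genes of the BMP and TGF-beta pathways had 0.05 over 9 genes, and -0.24 without that library, and kinesin-2 genes -0.18 over 5 genes, with no call in either.

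Called genes were mostly protein-coding, as were the genes tested (13153 of 16852). Protein-coding genes made up 36 of the 40 and 11 of the 13 called genes. This is 0.274% and 0.0836% of the 13153 tested, against 0.237% and 0.0771% of all genes tested. Long non-coding RNAs made up 4 and 1, or 0.171% and 0.0427% of 2342. The median log2 difference was -0.00 for protein-coding genes, -0.05 for long non-coding RNAs and -0.02 for pseudogenes. Divided into 5 equal bins by mean level over all libraries, weakly expressed genes leaned to the NELFB knockdown: 62.5% of bin 2 had a negative log2 difference, against 36.4% of bin 5, the highest, and the medians were -0.07 and 0.03. Without NELFE knockdown replicate 3 these shares were 55.7% and 45.1%. By exon length, 46.8% of the bin of shortest and 59.1% of the bin of longest genes were negative, and 47.2% and 53.1% without that library. Calls were spread over both scales, with 2, 14, 8, 10 and 6 higher genes from the lowest to the highest bin of expression.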

How the data were processed

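Gene counts deposited by the authors were used as they stand: raw counts per gene for 8 libraries of single-end 65-base reads, mapped to GRCh38 with STAR 2.5.4a against Gencode v24 without strand information, after FastQC 0.11.6 (tools per the labels). Totals were 22037423 to 24444185 counts, which leaves genes with few reads imprecise. The study describes independent replicates. Symbols and start sites were taken from Gencode v44 on GRCh38, which matched 97.4% of the gene identifiers with reads and 99.9% of the counts.

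The 3 groups were fitted together with edgeR 4.0.16 (R 4.3.3, limma 3.58.1): filterByExpr kept 16852 of 33854 genes with reads, TMM normalization, robust quasi-likelihood F test, Benjamini-Hochberg adjustment over all genes tested, threshold 0.05. All adjusted p-values are from this fit unless DESeq2 1.42.0 is named. CPM are normalized by TMM. A level of at most 3 reads per library was taken as the floor, which covers counting error only. Tables and figures were made with Python 3.11.15, pandas 2.3.3, numpy 2.4.6 and matplotlib 3.10.9, and the fit was tested on simulated counts.

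Genes named are the guide targets, NELF subunits, neighbours starting within 10000 bases of a target, all called genes whose average level was at or above 1 on the log2 CPM scale (the 15 largest differences in each direction with values, others by name or count) and up to 3 members of each list with the smallest p. Others were chosen after their values were seen, namely the called genes at lower levels, YY1, ADAM22 and the markers. The guide RNA sequences come from the study and were located in the GRCh38 reference sequence. The comparison, its members and the gene lists were chosen with earlier results of these data known. The 16 alternatives were DESeq2, its size factors, no filter, at least 10 counts in every library, the 5 knockdown libraries alone, protein-coding genes alone, a prior count of 2, a replicate block and each of the 8 libraries left out. For the guide match, windows of 250 and 1000 bases and runs of at least 8 and 11 bases were also tried. In this order, matches were present at 19, 32, 30 and 23 called genes of either direction. The shares of all genes tested were 0.599%, 1.29%, 7.68% and 0.255%. Values given for called genes beyond those 15 in a direction, and the list medians and counts printed without NELFE knockdown replicate 3, were chosen after seeing the data. Of the called genes, 1 is not reported here.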

Additional observations from a re-analysis of the deposited data

Results flagged for a closer look

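ERRFI1 stood out because the effects of the guide RNAs, each against control, were both called with opposite signs and their difference passed the test. The gene also carries an 11-base match of the NELFB guide RNA in exon 1, 92 bases from a start site. The part of this match in its fall in the NELFB knockdown was not tested. By their levels alone, TGFB3, DGCR2 and ENSG00000235806 also had all NELFE libraries above and both NELFB libraries below all controls, without a call for NELFE against control (adjusted p = 0.0937, 0.0605 and 0.167, edgeR). The log2 difference between the NELFE and NELFB knockdowns was 2.04 (SE 0.21, adjusted p = 0.00116, edgeR quasi-likelihood test). All 3 NELFE libraries lay above and both NELFB libraries lay below all 3 controls. Without NELFB knockdown replicate 2 the log2 difference was 1.88 and no longer passed (adjusted p = 0.0541, edgeR). In the other 15 alternative analyses the gene was called.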

How the results depend on the processing

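The count of 40 genes higher in the NELFE knockdown ran from 24 to 47 when libraries were left out in turn, and it was 24 without NELFB knockdown replicate 2. The 13 lower genes became 2 to 34: 27 without control replicate 1, 2 without control replicate 2 or NELFB knockdown replicate 1, 3 without NELFE knockdown replicate 1 or 2 or NELFB knockdown replicate 2, and 34 without NELFE knockdown replicate 3, with 9 of the 13 shared. Where 1 NELFB library was left out, the other was assumed to vary like the other groups. The higher and lower counts were 66 and 95 with no filter. There, 13 named genes passed that did not pass in the fit reported. They were EGR3, JUN, NUAK2, FLNA, TPM2, HES1, H2BC7, CD34, RPL22L1, MEST, GDF15, SNHG19 and ZNF778-DT. The lower count was 36 with DESeq2 (11 shared), 8 with at least 10 counts in every library and 8 with the 5 knockdown libraries alone. With the replicate number as a block, 69 genes were higher and 126 lower, all 40 and 13 among them, and 9 further named genes passed: CCN2 (adjusted p = 0.000124), NUAK2 (0.0012), EGR3 (0.00368), JUN (0.00633), COL3A1 (0.000164), LAMB1 (0.03), FLNA (0.0076), RPL22L1 (0.0184) and ZNF778-DT (0.00612), all from edgeR. Whether the numbers pair the libraries was not settled: deviation correlations of same-numbered libraries were 0.12 and 0.40 for NELFE and NELFB, 0.51, 0.11 and 0.74 for control and NELFE, and -0.12 and -0.04 for control and NELFB, and NELFE knockdown replicate 2 correlated best with control replicate 1 (0.45). The cause of these shifts was not tested. Over the genes named, 2286 values kept their direction and side of the threshold, 122 lost and 32 gained the call, and none changed sign while called. Of the list medians, 601 moved by less than the spread between replicates and 35 by more. Depth limits the genes at the floor, and 2 NELFB libraries limit the estimate of spread.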
